A study of Mus musculus with 2 samples.

Results

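Interferon-stimulated genes are the set of genes that cells switch on after they sense an interferon. The 41 members described here are mouse genes of this set, taken by symbol from a list of known interferon targets. All 41 were found among the 55357 genes measured in both libraries. Type I interferons (interferon alpha and beta) bind the receptor made of Ifnar1 and Ifnar2, interferon lambda binds Ifnlr1 with Il10rb, and both lead to a complex with Stat2 and Irf9 that binds the interferon-stimulated response element in promoters. Interferon gamma binds Ifngr1 and Ifngr2 and acts through the gamma-activated site. In the gut these genes are known to restrain virus growth in epithelial and immune cells, and in tumours they are read as a record of interferon exposure.

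The study measured single-cell RNA in mouse colon tumour tissue in 2 libraries. The library labelled KO came from animals with floxed Ecm1 alleles (ECM1Flox/Flox) and Villin-Cre, in which the Villin promoter directs Cre to intestinal epithelium. The library labelled WT came from ECM1Flox/Flox animals, for which no Cre is listed. The design text names neutrophils in the tumour as the question of the study. The tumour model, the age and sex of the animals, and how many animals each library holds were not stated. With 1 library per genotype no difference between genotypes could be tested: each ratio below compares these libraries, and its 95% interval covers counting error only.

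The library labelled KO held 4896 barcodes with a median of 7949.5 unique molecular identifiers (UMIs, counted RNA molecules), and the library labelled WT held 9512 barcodes with a median of 2705.5. Of all barcodes, 17 occurred in both. After filtering, 4233 cells labelled KO and 8262 cells labelled WT remained. The targeted gene Ecm1 was not lower in the library labelled KO, at 46.5 CPM (UMIs per 1000000 UMIs of the cells named) against 40.8 CPM in the library labelled WT. These counts do not show whether the floxed part of the gene was deleted. Xist and the Y-linked Ddx3y stood on opposite sides, with Xist at 1381 CPM in the library labelled KO and 0.0955 CPM in the library labelled WT. The libraries thus also differ in the sex of the animals. Genotype, sex and library cannot be told apart in any value below.

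Cells were clustered without the 41 genes and the clusters were named from marker genes as epithelial-like, neutrophil-like, monocyte-like, macrophage-like, T-like and B-like (the ending is left out from here on). The classes held 2292, 199, 244, 264, 264 and 136 cells labelled KO and, in the same order, 2114, 2240, 883, 466, 1082 and 268 cells labelled WT. Depth differed between the libraries within a class: epithelial cells had a median of 19814.5 UMIs in the library labelled KO and 9945 UMIs in the library labelled WT. Epithelial cells labelled KO lay mostly in clusters 10, 3, 11 and 5, and those labelled WT mostly in clusters 0, 3 and 11. A gene was counted as lower or higher where its level differed at least 2-fold between the libraries with at least 20 UMIs in both together, and a gene with fewer UMIs is called not measured in that class.

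The promoters show what the members share in sequence. Of the 41 members, 32 had a promoter entry in the RefSeq table of build GRCm38.p6 (250 bases before to 50 bases after a gene's start, matched by symbol because the counts use GRCm39). The other 9 (Dhx58, Ifi27l2a, Mx1, Mx2, Oas2, Parp14, Rtp4, Usp18 and Zbp1) had none. The core of the interferon-stimulated response element, spelled GAAA, any 2 bases, GAAA and searched on both strands, was present in 20 of these 32 members (62.5%), against 3.99% of the 27025 genes in the table (3.44% of its 32851 promoters). The core of the gamma-activated site, TTCNNNGAA, which reads the same on both strands, was present in 9 of the 32 (28.1%), against 9.55% of all genes (8.30% of promoters). The 2 cores were counted separately, whether or not they overlapped. A match describes these letters only and is not a measured binding site. The 5 windows of 100 bases below are shown 5′ to 3′ in the gene's direction because the results turn on these genes: Ifit1 and Rsad2 were lower in epithelial cells and monocytes labelled KO, Isg15 had ratios on both sides of 1, Ifit1bl1 stood out in a surface cluster, and Bst2 carried the same motif but had ratios above 1. Capitals mark this core on either strand, so that it can also read TTTC, any 2 bases, TTTC. The Isg15 window holds 3 overlapping matches, the Bst2 window 2 overlapping matches, the Ifit1 window 2 separate ones, and the Rsad2 and Ifit1bl1 windows 1 each.
Ifit1 (chr19:34640749-34640848, + strand): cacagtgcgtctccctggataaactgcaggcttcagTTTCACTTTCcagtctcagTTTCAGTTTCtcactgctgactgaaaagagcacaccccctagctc
Rsad2 (chr12:26456518-26456617, - strand): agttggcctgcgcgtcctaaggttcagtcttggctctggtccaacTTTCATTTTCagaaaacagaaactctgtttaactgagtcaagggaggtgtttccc
Isg15 (chr4:156200836-156200935, - strand): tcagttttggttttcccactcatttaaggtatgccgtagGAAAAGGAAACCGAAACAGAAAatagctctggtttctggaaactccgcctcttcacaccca
Ifit1bl1 (chr19:34602018-34602117, - strand): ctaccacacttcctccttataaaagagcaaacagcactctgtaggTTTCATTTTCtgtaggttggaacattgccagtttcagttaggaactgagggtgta
Bst2 (chr8:71537545-71537644, - strand): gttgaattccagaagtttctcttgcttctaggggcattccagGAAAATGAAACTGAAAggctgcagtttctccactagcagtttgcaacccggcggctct

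Summed over the 41 members, the level was highest in monocytes and neutrophils among the 6 classes. Monocytes held 2357 CPM in cells labelled KO and 2834 CPM in cells labelled WT. Neutrophils held 2199 CPM in cells labelled KO and 3137 CPM in cells labelled WT. Epithelial cells held far less, 368.5 CPM in cells labelled KO and 619.7 CPM in cells labelled WT. Of the 41 members, 27 had their highest level in the same class in both libraries: 12 in neutrophils, 5 in monocytes, 4 in T cells, 3 in epithelial cells, 3 in macrophages and none in B cells. Ifi27l2a, which encodes a small interferon-induced membrane protein, made up much of the sum in leukocytes, with 1314 CPM in cells labelled KO and 1404 CPM in cells labelled WT in monocytes. Neutrophils held 689.8 CPM labelled KO against 1081 CPM labelled WT of it. Epithelial cells labelled WT also carried more transcripts of neutrophil markers than those labelled KO: a list of 10 neutrophil markers summed to 138 CPM in cells labelled KO and 907 CPM in cells labelled WT, with none of the 10 at 0 and none higher under the KO label. Free RNA was therefore subtracted as an alternative, with the results given beside the epithelial values.

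**Figure D1:**
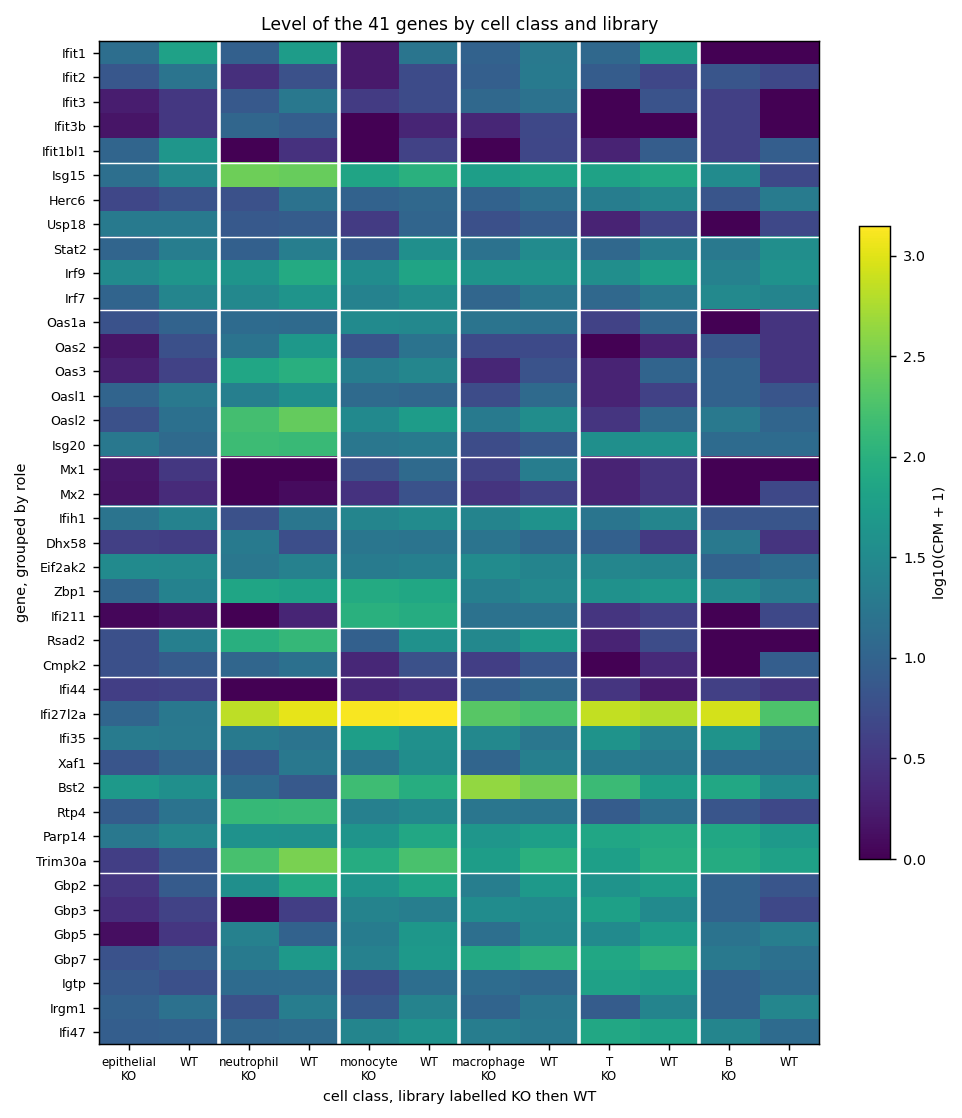
Level of each of the 41 genes (rows, grouped by role) in 6 cell classes, the library labelled KO left of the library labelled WT in each pair, as log10 of CPM plus 1. Ifi27l2a is brightest in monocytes in both libraries, Isg15, Oasl2 and Trim30a stand out in neutrophils, and Bst2 in macrophages.

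In 5 of the 6 classes most measured members had a ratio, KO over WT, below 1: 34 of 40 in epithelial cells, 25 of 35 in neutrophils, 30 of 38 in monocytes, 29 of 39 in macrophages and 20 of 28 in T cells. The median ratio over all measured genes was also below 1 in each of these classes. These counts therefore do not set the members apart from other genes. In epithelial cells 20 of 40 measured members were 2-fold or more lower and none was 2-fold or more higher, where 10.6% of all 17912 measured genes were lower and 3.53% higher. With equal weight for each epithelial cluster, 12 were lower (all genes 10.5%). The median log2 ratio of the members was −0.97 in epithelial cells, beside −0.05 over all measured genes. In monocytes 16 of 38 measured members were lower and none higher (all genes 13.4% and 4.38%), with a median of −0.73 beside −0.13 over all genes. The monocyte count depended on how finely cells were clustered: at resolution 0.5, where the class took in 284 cells labelled KO and 1025 labelled WT, 5 members stayed 2-fold or more lower (Usp18, Stat2, Mx2, Gbp5 and Irgm1) and 1 was higher, where 12.2% of all genes were lower, so that this count is near the share over all genes. The main monocyte cluster, 7 (171 cells labelled KO, 481 labelled WT), had 16 of 36 measured members lower and none higher (all genes 12.5% and 6.32%). The second, cluster 9, had 13 of 30 lower and 2 higher (all genes 15.2% and 3.68%). In neutrophils 12 of 35 were lower and 2 higher (all genes 16.5% and 5.66%), with a median of −0.46 beside −0.16. Neutrophils labelled KO lay mostly in cluster 13 (140 cells) and those labelled WT in clusters 13 (1163 cells) and 24 (883 cells). Within cluster 13 alone 9 of 30 members were lower and 1 higher (all genes 14.2% and 6.88%). In macrophages 10 of 39 were lower and none higher (all genes 7.14% and 6.01%), with a median of −0.55 beside −0.02. In T cells 6 of 28 were lower and 1 higher (all genes 12.4% and 3.32%), with a median of −0.50 beside −0.16. The lower count was 10 without doublet removal (all genes 13.35%) and 2 at a minimum of 50 UMIs (all genes 8.69%). B cells differed: of 9 measured members none was lower and 3 were higher (all genes 9.63% and 4.01%), with a median of 0.59 beside −0.14. The 3 were Ifi27l2a, Bst2 and Ifi35, and 2 of the 9 had a ratio below 1. At a minimum of 50 UMIs 1 was higher (all genes 2.43%). The other 32 members had too few UMIs there to be measured, so the B-cell values do not describe the list as a whole. In plasma cells 3 of 18 measured members were lower and 1 higher (all genes 8.8% and 13.2%). In mast cells 2 of 10 were lower and 4 higher (all genes 13.1% and 18.5%).

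Transcripts of other cell types also differed between the libraries in these classes. The list of 10 neutrophil markers summed to 1225 CPM in cells labelled KO and 1961 CPM in cells labelled WT in monocytes. In macrophages it summed to 530.0 CPM in cells labelled KO and 2378 CPM in cells labelled WT, and a list of 10 epithelial markers summed there to 819 CPM in cells labelled KO and 197 CPM in cells labelled WT. No marker of either list was at 0 in these 2 classes. Their part in the member ratios of these 2 classes was not tested. In T cells the neutrophil list summed to 236 CPM in cells labelled KO and 565 CPM in cells labelled WT, with Cxcr2 at 0 in both libraries and Csf3r at 0 in cells labelled KO. The neutrophil gene S100a8 was seen in 5.68% of T cells labelled KO and 33.5% of those labelled WT without thinning. T cells of at least 10 UMIs of these markers (1 labelled KO, 8 labelled WT) were then left out. The counts of lower and higher members in T cells were again 6 and 1 (all genes 12.3% and 3.3%).

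Across classes the lower level was often shared. Of 37 members measured in at least 3 classes, 17 were below a ratio of 1 in every class where they were measured, against 23.7% of 10114 genes measured in at least 3 classes. Only 3 of the 37, Bst2, Ifi35 and Dhx58, were above 1 in every class where they were measured, against 15.9% of all genes. Stat2 and 8 other members were measured in all 6 classes, and Stat2 was below 1 in each.

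**Figure D2:**
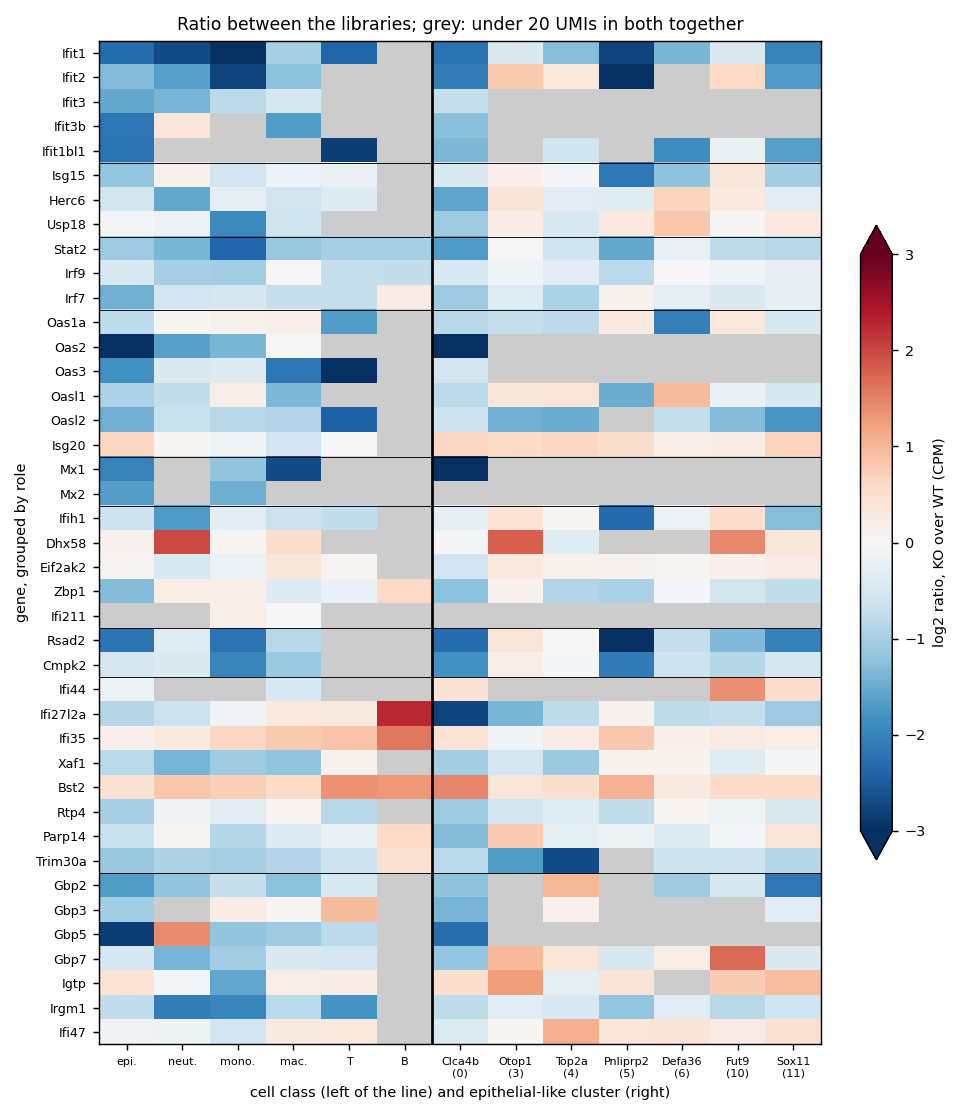
Log2 ratio of CPM, KO over WT, of each member in 6 cell classes (left of the line) and 7 epithelial clusters (right, each with a leading gene and its number); blue is lower in the library labelled KO, red is higher, and grey marks fewer than 20 UMIs. The epithelial and monocyte columns are mostly blue, while Bst2 is red in all 6 classes.

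The IFIT proteins bind foreign RNA and hold back its translation. All 5 IFIT members were 2-fold or more lower in epithelial cells labelled KO (all genes 10.6%). Ifit1, which binds RNA whose cap lacks methylation, had 12.6 CPM in cells labelled KO and 62.8 CPM in cells labelled WT (ratio 0.201, 0.184 to 0.219). It was lower in neutrophils as well, with 8.29 CPM labelled KO against 53.4 CPM labelled WT (ratio 0.155, 0.0499 to 0.367). Only 5 Ifit1 UMIs lay behind the value labelled KO. T cells labelled KO had 10.4 CPM of Ifit1 and those labelled WT 55.3 CPM (ratio 0.188, 0.0887 to 0.355). Among T cells labelled WT, 5 cells held 53.3% of the Ifit1 UMIs. Monocytes held 1 UMI in the library labelled KO against 70 Ifit1 UMIs in the library labelled WT, of which 5 cells held 77.1%. Macrophages held 8.85 CPM labelled KO against 17.7 CPM labelled WT (ratio 0.5004, 0.297 to 0.812), just short of 2-fold. B cells had no Ifit1 UMI in either library. Ifit2, a relative that also restrains viral mRNA, had 6.10 CPM in cells labelled KO and 15.1 CPM in cells labelled WT in the epithelium (ratio 0.403, 0.349 to 0.465). Ifit1bl1, a mouse relative of Ifit1, was mostly an epithelial transcript in these libraries, with 9.53 CPM in cells labelled KO and 44.4 CPM in cells labelled WT (ratio 0.215, 0.194 to 0.238). It reached at most 7.76 CPM in another main class. Ifit3 and Ifit3b were each under 3 CPM in epithelial cells. Their reads are uncertain because 47.2% and 21.8% of the 50-base stretches near their 3′ ends occur in other genes, chiefly in each other. Outside the main classes, the 1 IFIT member measured in mast cells was higher in cells labelled KO, at a log2 ratio of 5.45 (all genes 18.5% higher).

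Isg15 encodes a ubiquitin-like protein that is attached to other proteins, Herc6 the mouse ligase for it, and Usp18 the enzyme that removes it and also dampens the type I receptor. Isg15 was lower in epithelial cells, with 13.2 CPM in cells labelled KO and 29.6 CPM in cells labelled WT (ratio 0.447, 0.405 to 0.493). In neutrophils, where Isg15 was highest, the libraries differed by no more than counting error, with 280.3 CPM in cells labelled KO and 258 CPM in cells labelled WT (ratio 1.09, 0.918 to 1.28). Monocytes were between, with 67.8 CPM labelled KO against 99.0 CPM labelled WT (ratio 0.685, 0.550 to 0.847). The intervals of macrophages (ratio 0.881, 0.714 to 1.08) and T cells (ratio 0.857, 0.636 to 1.14) included 1. Usp18 did not follow Isg15 in the epithelium, where it had 18.1 CPM in cells labelled KO and 18.8 CPM in cells labelled WT (ratio 0.962, 0.866 to 1.07). In monocytes Usp18 was lower, with 2.51 CPM labelled KO against 9.52 CPM labelled WT (ratio 0.264, 0.0688 to 0.728). Herc6 was 2-fold lower in neutrophils and within 2-fold in epithelial cells, monocytes, macrophages and T cells. The neutrophil value rested on 3 UMIs in cells labelled KO, and 17.2% of its 3′ stretches are shared with a read-through gene.

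The transcription factors of the pathway, Stat2, Irf9 and Irf7, are themselves interferon targets. Stat2, which acts with Irf9, was 2-fold or more lower in 4 classes. Epithelial cells held 9.78 CPM in cells labelled KO and 20.7 CPM in cells labelled WT (ratio 0.472, 0.420 to 0.531). Monocytes showed the lowest ratio, with 6.91 CPM labelled KO against 36.0 CPM labelled WT (ratio 0.192, 0.0938 to 0.352). Macrophages held 14.5 CPM labelled KO against 32.0 CPM labelled WT (ratio 0.453, 0.305 to 0.657). Neutrophils held 8.29 CPM labelled KO against 21.5 CPM labelled WT (ratio 0.386, 0.122 to 0.931). The library labelled KO was thus lower in each of these classes by more than counting error. T cells held 10.4 CPM labelled KO against 20.8 CPM labelled WT (ratio 0.501, 0.229 to 0.985), within 2-fold. Irf9, the DNA-binding part of the complex, was lower in neutrophils, at 41.5 CPM labelled KO against 83.2 CPM labelled WT (ratio 0.498, 0.319 to 0.748). Monocytes held 33.3 CPM labelled KO against 68.6 CPM labelled WT (ratio 0.485, 0.355 to 0.651), also past 2-fold. Macrophages, at 39.8 CPM labelled KO against 40.4 CPM labelled WT (ratio 0.987, 0.764 to 1.27), were level. Irf7, which amplifies interferon production, had 9.43 CPM in cells labelled KO and 25.7 CPM in cells labelled WT in epithelial cells (ratio 0.366, 0.327 to 0.410). By cluster the Irf7 ratio was 0.467 in cluster 0 (99 cells labelled KO, 544 labelled WT), 0.844 in cluster 11 and 1.08 in cluster 5. Among epithelial cells with at least 5000 UMIs, a comparison added after these values were seen, the Irf7 ratio was 0.553, within 2-fold. Its ratios in neutrophils, monocytes, macrophages and T cells lay between 0.616 and 0.702, inside 2-fold.

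The 2-5A synthetases make the messenger that activates an RNA-cutting enzyme, and Oasl1 and Oasl2 are relatives of them. Of the 5 synthetase-family members and the RNA exonuclease gene Isg20, 3 were lower in epithelial cells (all genes 10.6%): Oas2, Oas3 and Oasl2. Oas2 had the lowest epithelial ratio of all members, with 0.526 CPM in cells labelled KO and 4.79 CPM in cells labelled WT (ratio 0.110, 0.0713 to 0.164). It was also lower in neutrophils, at 14.9 CPM labelled KO against 46.4 CPM labelled WT (ratio 0.322, 0.145 to 0.623). Oasl2 was chiefly a neutrophil transcript, with 161 CPM in cells labelled KO and 254 CPM in cells labelled WT (ratio 0.633, 0.509 to 0.779). Epithelial cells held 4.96 CPM labelled KO against 13.4 CPM labelled WT (ratio 0.370, 0.317 to 0.432). Oas3 was lower in T cells and macrophages, on 1 and 3 UMIs labelled KO against 28 and 24 labelled WT, so those ratios are loose. The Oasl2 ratio was below 1 with an interval that excluded 1 in epithelial cells, neutrophils, monocytes, macrophages and T cells. In T cells it rested on 2 cells labelled KO and 26 labelled WT with an Oasl2 UMI. Outside neutrophils, the neutrophil marker sums of the other classes named were also lower under the KO label. Their part in the Oasl2 ratios was not tested in monocytes and macrophages. Oas1a shared 58.3% of its 3′ stretches with Oas1g and is uncertain. Its ratios in neutrophils, monocytes and macrophages were between 1.03 and 1.10. Isg20 went the other way in the epithelium, with 17.3 CPM in cells labelled KO and 11.3 CPM in cells labelled WT (ratio 1.54, 1.36 to 1.75), within 2-fold. It was level in neutrophils at 141 CPM labelled KO against 135 CPM labelled WT (ratio 1.04, 0.823 to 1.31).

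The Mx proteins are dynamin-like GTPases that trap viral components. Both were scarce and lower. Mx1 had 0.561 CPM in cells labelled KO and 2.24 CPM in cells labelled WT in epithelial cells (ratio 0.2499, 0.159 to 0.387). It had 3.22 CPM labelled KO against 20.6 CPM labelled WT in macrophages (ratio 0.156, 0.0654 to 0.321), the lowest macrophage ratio among the members. In monocytes Mx1 had 5.02 CPM labelled KO against 11.3 CPM labelled WT (ratio 0.444, 0.182 to 0.943). Mx2 was lower in epithelial cells, at 0.456 CPM labelled KO against 1.43 CPM labelled WT (ratio 0.319, 0.188 to 0.533). In monocytes it rested on 3 UMIs in cells labelled KO and 23 in cells labelled WT.

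Of 4 measured sensors of foreign nucleic acid, 1 was lower in epithelial cells (all genes 10.6%). Ifih1 (the double-stranded RNA sensor MDA5) had 15.5 CPM in cells labelled KO and 23.8 CPM in cells labelled WT in epithelial cells (ratio 0.649, 0.587 to 0.718). Eif2ak2, the kinase PKR that stops translation on double-stranded RNA, was level in the epithelium at 30.8 CPM labelled KO against 28.9 CPM labelled WT (ratio 1.06, 0.980 to 1.16). Zbp1, a sensor of Z-form nucleic acid, was 2-fold lower in epithelial cells, with 9.68 CPM in cells labelled KO and 24.0 CPM in cells labelled WT (ratio 0.404, 0.360 to 0.452). Monocytes held 82.9 CPM labelled KO against 73.0 CPM labelled WT (ratio 1.14, 0.921 to 1.40), and neutrophils 69.7 CPM labelled KO against 61.6 CPM labelled WT (ratio 1.13, 0.796 to 1.57). The epithelial and monocyte values of Zbp1 thus lay on opposite sides of 1, a difference between classes that was not tested. Dhx58, a regulator of the RNA sensors, was higher in neutrophils at 18.2 CPM labelled KO against 4.66 CPM labelled WT (ratio 3.92, 1.71 to 8.50). This rested on 11 UMIs labelled KO and 21 labelled WT. Ifi211, of the DNA-sensing family, was found mainly in monocytes and was level there at 98.6 CPM labelled KO against 87.0 CPM labelled WT (ratio 1.13, 0.935 to 1.37). However, 81.0% of its 3′ stretches occur in Ifi205 or Mndal, so its reads cannot be told from theirs.

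Rsad2 (viperin) makes a chain-terminating nucleotide from the product of its neighbour Cmpk2. Rsad2 was lower in epithelial cells, with 4.802 CPM in cells labelled KO and 21.8 CPM in cells labelled WT (ratio 0.221, 0.191 to 0.255). It was also lower in monocytes, with 8.16 CPM labelled KO against 38.1 CPM labelled WT (ratio 0.214, 0.112 to 0.377). At resolution 0.5 the monocyte ratio was 0.636, within 2-fold. Neutrophils had the most Rsad2 and a ratio nearer 1, with 96.2 CPM labelled KO against 124 CPM labelled WT (ratio 0.774, 0.581 to 1.02). Macrophages held 28.2 CPM labelled KO against 49.9 CPM labelled WT (ratio 0.565, 0.425 to 0.742). Cmpk2 was lower in monocytes and macrophages and within 2-fold in epithelial cells, at 4.86 CPM labelled KO against 6.94 CPM labelled WT (ratio 0.700, 0.582 to 0.843).

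Of the 8 other antiviral and accessory genes, 2 of 8 measured were lower in epithelial cells (all genes 10.6%) and 2 of 7 in monocytes (13.4%). In neutrophils 1 of 7 was lower (all genes 16.5%) and in macrophages 1 of 8 (7.14%), both near the share over all genes. In T cells none of 7 was lower (12.4%). Of these genes, 1 of 7 was higher in T cells (all genes 3.32%) and 3 of 5 measured were higher in B cells (all genes 4.01%). Trim30a, which restrains inflammatory signalling in mice, had 169 CPM in cells labelled KO and 322 CPM in cells labelled WT in neutrophils (ratio 0.525, 0.425 to 0.642). Monocytes held 87.9 CPM labelled KO against 177 CPM labelled WT (ratio 0.497, 0.413 to 0.596). Macrophages held 55.9 CPM labelled KO against 103 CPM labelled WT (ratio 0.544, 0.447 to 0.660). Epithelial cells held 2.80 CPM labelled KO against 6.19 CPM labelled WT (ratio 0.453, 0.364 to 0.563). In these 4 classes the ratio lay between 0.453 and 0.544 over a wide range of levels. It was 0.642 in T cells, and in B cells it was above 1 with an interval that included 1 (ratio 1.36, 0.796 to 2.33). Of its 3′ stretches, 13.5% are shared with Trim30d. Xaf1, a proapoptotic gene, was lower in neutrophils, monocytes and macrophages, with ratios of 0.384, 0.480 and 0.444. Rtp4, a chaperone of receptors, was lower in epithelial cells at 7.34 CPM labelled KO against 14.7 CPM labelled WT (ratio 0.499, 0.435 to 0.572). It was level in neutrophils at 126 CPM labelled KO against 136 CPM labelled WT (ratio 0.930, 0.723 to 1.18). Parp14, an ADP-ribosyltransferase, had ratios of 0.630 in epithelial cells and 0.551 in monocytes, within 2-fold.

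Bst2 (tetherin), which holds budding virus at the cell surface, had a ratio above 1 in every main class. Its interval lay above 1 in 5 of the 6 classes and included 1 in neutrophils. T cells held 139.6 CPM in cells labelled KO and 55.0 CPM in cells labelled WT (ratio 2.54, 2.01 to 3.21). B cells held 75.9 CPM labelled KO against 31.0 CPM labelled WT (ratio 2.44, 1.26 to 4.88). Both were past 2-fold. Macrophages, with the most Bst2 of the main classes, held 435 CPM labelled KO against 295 CPM labelled WT (ratio 1.48, 1.36 to 1.60). Monocytes held 146 CPM labelled KO against 89.5 CPM labelled WT (ratio 1.64, 1.39 to 1.93). Epithelial cells held 49.1 CPM labelled KO against 35.6 CPM labelled WT (ratio 1.38, 1.28 to 1.48). The direction was shared, while the size stayed inside 2-fold in these classes. Ifi35, an adaptor of interferon signalling, also had ratios above 1 throughout. B cells held 40.9 CPM labelled KO against 13.6 CPM labelled WT (ratio 3.01, 1.14 to 8.81), past 2-fold. T cells held 40.6 CPM labelled KO against 22.4 CPM labelled WT (ratio 1.81, 1.19 to 2.73). Macrophages held 28.6 CPM labelled KO against 16.6 CPM labelled WT (ratio 1.73, 1.23 to 2.43). Ifi27l2a changed side between classes. Its ratio was below 1 in neutrophils by more than counting error (ratio 0.638, 0.576 to 0.706), and close to 1 in monocytes (ratio 0.936, 0.890 to 0.984). It was higher in B cells, at 887 CPM in cells labelled KO and 184 CPM in cells labelled WT (ratio 4.82, 3.81 to 6.13). The list of 10 neutrophil markers summed to 2951 CPM in cells labelled KO and 607 CPM in cells labelled WT in B cells, but 2 of the 136 cells labelled KO held most of it. Without cells of at least 10 UMIs of these markers, left out after the values were seen, it summed to 78.1 CPM labelled KO and 516 CPM labelled WT, and the Ifi27l2a ratio was 4.83. The Ifi27l2a ratio there was 5.02 after free RNA was subtracted.

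**Figure D3:**
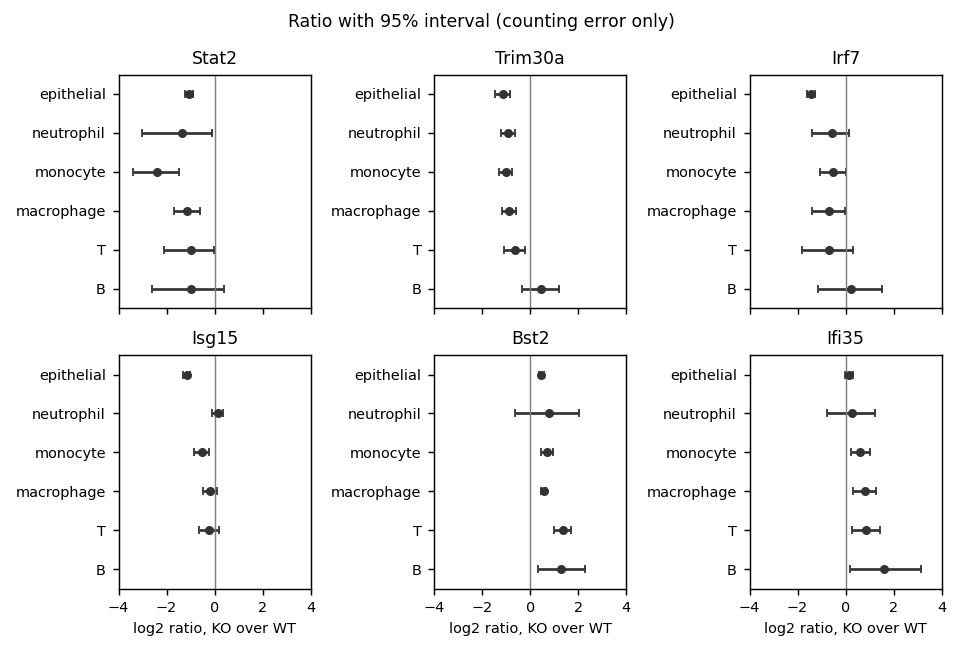
Log2 ratio of CPM, KO over WT, with its 95% interval for counting error, of 6 members in the 6 classes; the vertical line marks equal levels, and Isg15 in B cells is left out because it had fewer than 20 UMIs. Stat2 and Trim30a lie left of the line in epithelial cells, neutrophils, monocytes, macrophages and T cells, Isg15 crosses it in neutrophils, and Bst2 and Ifi35 lie right of it in all 6 classes.

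The interferon-inducible GTPases (guanylate-binding and immunity-related) attack the vacuoles of intracellular microbes and answer to interferon gamma above all. In epithelial cells 3 of the 7 were lower (Gbp2, Gbp3 and Gbp5; all genes 10.6%). In monocytes 4 of 7 were lower (Gbp5, Gbp7, Igtp and Irgm1; all genes 13.4%). In neutrophils 3 of 6 measured were lower (Gbp2, Gbp7 and Irgm1; all genes 16.5%). In macrophages 2 of 7 were lower (Gbp2 and Gbp5; all genes 7.14%). In T cells 1 of 7 was (Irgm1), near the share over all genes (12.4%). Gbp2 had 2.16 CPM in cells labelled KO and 6.90 CPM in cells labelled WT in epithelial cells (ratio 0.312, 0.248 to 0.393). Macrophages held 20.9 CPM labelled KO against 49.5 CPM labelled WT of it (ratio 0.423, 0.306 to 0.575). Neutrophils held 36.5 CPM labelled KO against 82.7 CPM labelled WT (ratio 0.441, 0.273 to 0.678), so Gbp2 was past 2-fold in all 3 classes. Gbp7 had 23.2 CPM labelled KO against 48.2 CPM labelled WT in monocytes (ratio 0.481, 0.330 to 0.685). Irgm1, which governs the other immunity-related GTPases, was lower in T cells, at 7.29 CPM labelled KO against 25.5 CPM labelled WT (ratio 0.286, 0.111 to 0.619). T cells were also where Gbp3 was nearly 2-fold higher, at 60.4 CPM labelled KO against 31.5 CPM labelled WT (ratio 1.92, 1.36 to 2.69). Gbp5, a helper of inflammasome activation, was higher in neutrophils at 23.2 CPM labelled KO against 8.65 CPM labelled WT (ratio 2.68, 1.35 to 5.05). This rested on 14 UMIs in cells labelled KO. The ratio without the 5 cells richest in member UMIs of each library was 1.32. Igtp in the epithelium was 6.49 CPM labelled KO against 4.86 CPM labelled WT (ratio 1.33, 1.10 to 1.63). With Bst2 and Isg20 it was one of 3 members whose epithelial interval lay above 1.

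Within the epithelium the members were not spread evenly. Of 39 members compared over the epithelial clusters, 25 had their highest level in the same cluster in both libraries, and for 21 of these it was cluster 0. Cluster 0 was led by Clca4b, Saa1, Clca4a and Krt20, genes of the mature surface epithelium, and held 99 cells labelled KO and 544 cells labelled WT, at a median of 27760 UMIs labelled KO and 2898 UMIs labelled WT. In this cluster the 41 members summed to 895.5 CPM in cells labelled KO and 1667 CPM in cells labelled WT, against 274.0 to 471.5 CPM in cells labelled KO and 272.6 to 1035 CPM in cells labelled WT of the 6 other clusters with at least 50 cells per library. Irf7 there had 68.5 CPM in cells labelled KO and 147 CPM in cells labelled WT (ratio 0.467, 0.396 to 0.549). It was at most 15.5 CPM in those 6 clusters. Ifit1bl1 had 118 CPM labelled KO against 302 CPM labelled WT (ratio 0.392, 0.347 to 0.443). Parp14 had 40.7 CPM labelled KO against 101 CPM labelled WT (ratio 0.404, 0.327 to 0.497). Zbp1 had 36.0 CPM labelled KO against 84.1 CPM labelled WT (ratio 0.427, 0.340 to 0.534). Over all cells of the surface cluster these 4 genes were past 2-fold. In cluster 0, 21 of 39 measured members were lower in the library labelled KO and 1, Bst2, was higher (all genes 10.9% and 8.74%). Bst2 held 61.1 CPM labelled KO against 22.2 CPM labelled WT there (ratio 2.75, 2.11 to 3.59). Restricted to cells with at least 5000 UMIs, a comparison added after these values were seen, cluster 0 kept 84 cells labelled KO and 177 labelled WT. There 12 of 38 measured members were lower (7.16% of all genes). Irf7 and Parp14 were then within 2-fold, with ratios of 0.656 and 0.559. Ifit1bl1 and Zbp1 stayed past 2-fold, with ratios of 0.423 and 0.460. The neutrophil gene S100a8 was at 85.5 CPM in cells of cluster 0 labelled KO and 771 CPM in those labelled WT. In this cluster 21 members were lower both before and after free RNA was subtracted (all genes 10.9% and 10.0%).

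Clusters 5 and 11 showed a second pattern, with high Ifit1 and Rsad2 but little Irf7 or Ifit1bl1. Cluster 5 was led by Pnliprp2 and Gulo and held 305 cells labelled KO and 121 labelled WT. Cluster 11 was led by Fst, Lcn2 and Sox11 and held 341 cells labelled KO and 378 labelled WT. Both scored highest on a list of Wnt target genes among the epithelial subtypes. In cluster 5 Ifit1 had 36.7 CPM in cells labelled KO and 251 CPM in cells labelled WT (ratio 0.146, 0.122 to 0.175). Rsad2 had 6.56 CPM labelled KO against 176 CPM labelled WT there (ratio 0.0373, 0.0252 to 0.0535). Ifit2 had 4.44 CPM labelled KO against 73.4 CPM labelled WT (ratio 0.0605, 0.0367 to 0.0957). A few cells carried these differences: 6 of the 121 cells labelled WT held 319 of the 352 Ifit1 UMIs there, and 1 cell held 114 Rsad2 and 56 Ifit2 UMIs. Without cells of at least 10 Ifit1 UMIs, the ratios in cluster 5 were 0.542 for Ifit1 and 0.616 for Ifit2, within 2-fold, and 0.487 for Rsad2. In cluster 11 Ifit1 had 33.9 CPM in cells labelled KO and 136 CPM in cells labelled WT (ratio 0.2498, 0.219 to 0.285). Rsad2 had 7.69 CPM labelled KO against 31.5 CPM labelled WT (ratio 0.244, 0.183 to 0.322). Here 23 of the 378 cells labelled WT held 957 of the 1047 Ifit1 UMIs. Without cells of at least 10 Ifit1 UMIs, the ratios in cluster 11 were 0.771 for Ifit1 and 0.681 for Rsad2, both within 2-fold. In both clusters these cells were picked by their own Ifit1 count, at a limit not adjusted for depth. The Ifit1 ratios without them are therefore a description and not a separate check. Of the 7 clusters compared, Usp18 was highest in cluster 5 and was not lower in the library labelled KO, at 78.6 CPM labelled KO against 64.2 CPM labelled WT (ratio 1.22, 0.972 to 1.56). In cluster 5, 9 of 26 measured members were lower and 1, Bst2, higher (all genes 5.77% and 6.15%). In cluster 11, 9 of 33 were lower and none higher (all genes 6.18% and 3.41%). The remaining clusters held fewer lower members: 3 of 29 in cluster 3, 4 of 32 in cluster 4 (dividing cells), 5 of 28 in cluster 6 (led by defensins) and 2 of 32 in cluster 10, where 4.83%, 5.53%, 6.22% and 6.32% of all genes were lower, in that order. Higher members numbered 2 in cluster 3, 1 in cluster 4, 0 in cluster 6 and 3 in cluster 10, beside 4.76%, 3.56%, 4.39% and 4.27% of all genes.

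**Figure D4:**
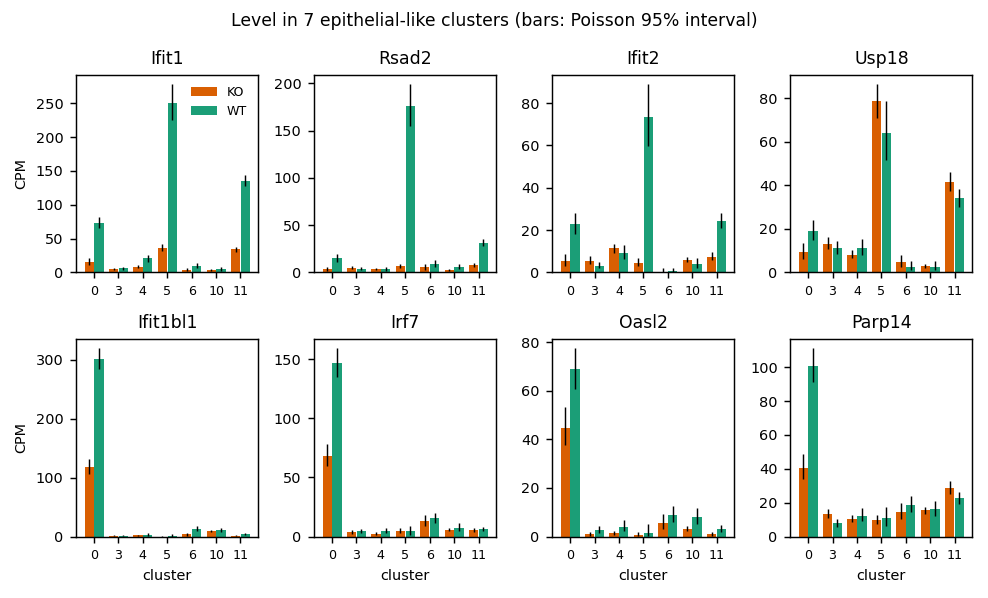
Level in CPM of 8 members in 7 epithelial clusters (numbers on the x axis), the library labelled KO left of the library labelled WT, with Poisson 95% intervals for counting error. Ifit1, Rsad2 and Ifit2 peak in cluster 5 in the library labelled WT and Usp18 peaks there in both libraries, while Ifit1bl1, Irf7, Oasl2 and Parp14 peak in cluster 0 in both.

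A few cells carried most of the epithelial Ifit1. Cells with at least 10 Ifit1 UMIs, a limit set after seeing the values, numbered 17 of 2292 labelled KO (0.742%) and 37 of 2114 labelled WT (1.75%). They held 465 of 718 Ifit1 UMIs (64.8%) in the library labelled KO and 1490 of 1846 (80.7%) in the library labelled WT. In cluster 11 they were 7 of 341 cells labelled KO and 23 of 378 labelled WT. In cluster 5 they were 4 of 305 labelled KO and 6 of 121 labelled WT. Outside cluster 0 these cells (16 labelled KO, 33 labelled WT) also held Cxcl10, an interferon-induced chemokine, at 743 CPM labelled KO and 1384 CPM labelled WT. They held Isg15 at 349.6 CPM labelled KO and 348 CPM labelled WT. Isg15 was thus at a like level in the Ifit1-rich cells of both libraries, while Rsad2 was at 92.9 CPM in those labelled KO and 489 CPM in those labelled WT. Rsad2 was seen in 12 of the 16 such cells labelled KO and 20 of the 33 labelled WT, and 1 cell held 114 of the 454 Rsad2 UMIs labelled WT. They held little of what marked cluster 0: Irf7 at 18.2 CPM labelled KO and 10.8 CPM labelled WT, and Oasl2 at 1.82 CPM labelled KO and 5.38 CPM labelled WT. Gbp2 had 0 UMIs in those labelled KO and 1.08 CPM in those labelled WT. Without the Ifit1-rich cells, 14 of 40 measured members were lower in epithelial cells (all genes 10.1%). In cluster 5, 3 of 25 were then lower (all genes 5.47%), and in cluster 11, 4 of 33 (all genes 5.97%). The log2 ratio of Rsad2 over all epithelial cells was −0.45 in place of −2.18, and the Ifit2 ratio was 0.924.

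Type I interferon transcripts were rare, and in epithelial cells those of Ifnb1 (interferon beta) lay largely in Ifit1-rich cells. Over all classes Ifnb1 was found in 4 of 4233 cells labelled KO (15 UMIs) and 13 of 8262 labelled WT (65 UMIs). Of these cells not all were epithelial: it was found in 2 of 2292 epithelial cells labelled KO (12 UMIs) and 6 of 2114 labelled WT (53 UMIs). The cell with the most, in cluster 5 of the library labelled WT, held 27 Ifnb1 UMIs with 138 Ifit1, 137 Cxcl10 and 114 Rsad2 UMIs. A cell in cluster 11 of the library labelled KO held 11 Ifnb1, 51 Ifit1 and 33 Cxcl10 UMIs. In all, 7 of the 8 Ifnb1-positive epithelial cells held at least 10 Ifit1 UMIs. The genes Ifna1, Ifna2, Ifna4 and Ifna5 had no UMI in either library, which at a floor of 3 UMIs allows up to 0.0429 CPM in the library labelled KO and 0.0573 CPM in the library labelled WT. Ifng was seen in more cells, 31 of 4233 labelled KO (48 UMIs) and 192 of 8262 labelled WT (452 UMIs). It was lower in T cells labelled KO, at 26.1 CPM in cells labelled KO and 55.3 CPM in cells labelled WT (ratio 0.471, 0.296 to 0.720).

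With each cell thinned to 1000 UMIs, so that depth was equal, a smaller share of epithelial cells, neutrophils and monocytes labelled KO carried several member transcripts. Cells with at least 5 member UMIs were 0.722% of epithelial cells labelled KO and 5.03% of those labelled WT. They were 11.3% of neutrophils labelled KO and 23.4% of those labelled WT, and 14.2% of monocytes labelled KO and 22.1% of those labelled WT. At 2000 UMIs, which leaves out more cells, the shares were 1.92% of epithelial cells labelled KO and 10.96% of those labelled WT, and 38.5% of neutrophils labelled KO and 48.5% of those labelled WT. At 1000 UMIs cluster 0 held 93 of 2217 epithelial cells labelled KO and 521 of 2010 labelled WT. Its shares were 8.602% labelled KO (3.787% to 16.25%) and 16.51% labelled WT (13.42% to 19.98%), with overlapping intervals. Other epithelial clusters compared had at most 2.4% in either library. The part of cluster sizes in the epithelial gap was not tested. At 2000 UMIs the shares in cluster 0 were 11.11% labelled KO (5.459% to 19.49%) and 39.11% labelled WT (34.18% to 44.21%). The neutrophil intervals overlapped at that depth (31.1% to 46.2% labelled KO, 45.3% to 51.8% labelled WT), with 1290 neutrophils labelled WT left out. The monocyte shares at that depth, 47.1% labelled KO and 52.0% labelled WT, also had overlapping intervals. In macrophages they were 2.99% labelled KO and 5.08% labelled WT at 1000 UMIs, and 18.5% labelled KO and 17.1% labelled WT at 2000 UMIs. At 1000 UMIs the T-cell shares were 7.03% labelled KO and 7.95% labelled WT, and the B-cell shares 6.01% labelled KO and 1.17% labelled WT. The macrophage intervals at both depths, and the T-cell and B-cell intervals at 1000 UMIs, overlapped between the libraries. Irf7 was seen in 1.13% of epithelial cells labelled KO and 7.41% of those labelled WT. Within cluster 0 the Irf7 shares were 10.8% labelled KO and 24.0% labelled WT, and in cluster 10 they were 0.645% labelled KO and 3.23% labelled WT. Cluster 0 thus held 10 of the 25 Irf7-positive epithelial cells labelled KO and 125 of the 149 labelled WT. Free RNA can give a UMI to a cell that does not express the gene: S100a8, which epithelial cells should lack, was seen in 2.71% of epithelial cells labelled KO and 19.0% of those labelled WT. Epcam, an epithelial gene, was seen in 10.3% of neutrophils labelled KO and 5.01% of those labelled WT. The Irf7 share of epithelial cells was below that of S100a8 in both libraries and is not read as expression on its own. With the free RNA expected from S100a8, C1qa and Lyz2 subtracted, 18 rather than 20 members were lower in epithelial cells (all genes 9.89% and 10.6%). The log2 ratio of Irf7 there was −1.44 in place of −1.45. Among epithelial cells with at least 5000 UMIs it was −0.85, within 2-fold, and 15 members were lower, beside 9.74% of all genes. Bst2 was seen in 33.3% of macrophages labelled KO and 21.6% of those labelled WT, and Ifi27l2a in 42.1% of B cells labelled KO and 13.7% of those labelled WT.

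**Figure D5:**
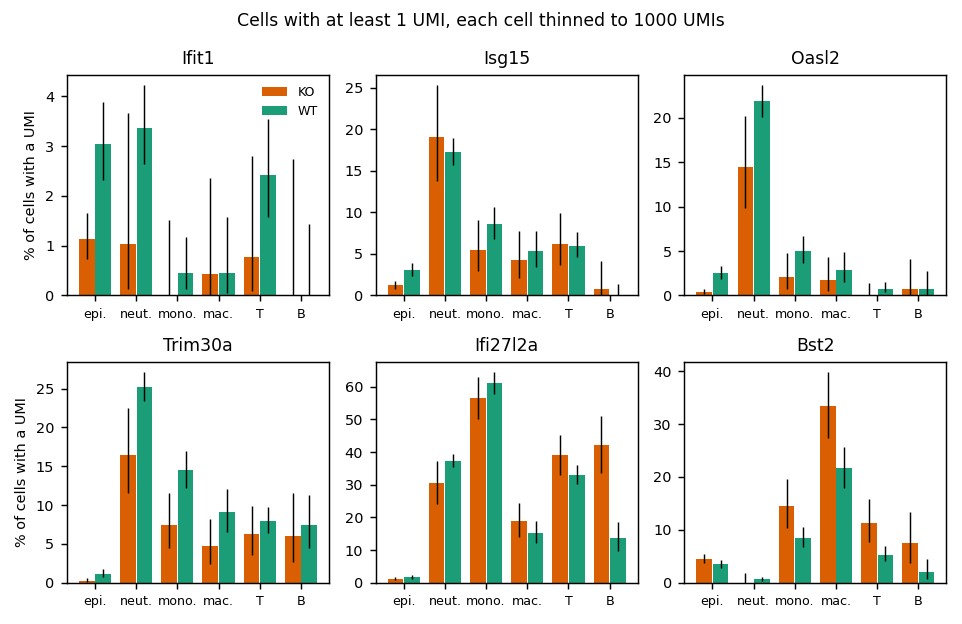
Percent of cells with at least 1 UMI of 6 members after each cell was thinned to 1000 UMIs, by class, the library labelled KO left of the library labelled WT, with exact binomial 95% intervals (Clopper-Pearson). Ifit1, Isg15 and Oasl2 are seen in more epithelial cells labelled WT, Bst2 in more macrophages and T cells labelled KO, and Ifi27l2a in more B cells labelled KO. Within epithelial cluster 0 alone, not drawn, the intervals of Ifit1, Isg15 and Oasl2 overlapped. The shares there were 7.53% labelled KO and 5.18% labelled WT for Ifit1, 10.75% and 6.53% for Isg15, and 6.45% and 8.25% for Oasl2, in the same order.

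The receptors and signalling genes of the pathway were within 2-fold in epithelial cells. None of the 6 interferon receptors was 2-fold lower or higher in epithelial cells (median log2 ratio −0.04), none of the 9 genes of signal transduction, none of the 5 negative regulators, and none of the 5 measured upstream sensors. Over all measured genes there, 10.6% were lower and 3.53% higher. Ifnar1, the type I receptor chain, had 31.3 CPM in cells labelled KO and 40.98 CPM in cells labelled WT in epithelial cells (ratio 0.764, 0.710 to 0.822). It had 82.9 CPM labelled KO against 134 CPM labelled WT in monocytes (ratio 0.619, 0.509 to 0.749). Ifngr1, a chain of the interferon gamma receptor, was above 1 in monocytes, at 265 CPM labelled KO against 144 CPM labelled WT (ratio 1.83, 1.62 to 2.08), within 2-fold. Irf1, a transcription factor induced by interferon gamma, was 2-fold or more lower in neutrophils, monocytes, macrophages and T cells, with ratios of 0.409, 0.314, 0.480 and 0.416, and stood at 0.811 in epithelial cells. Of all 9 signal transduction genes, 4 were lower and 2 higher in neutrophils (all genes 16.5% and 5.66%). In monocytes 3 were lower (all genes 13.4%), in macrophages 3 (7.14%) and in T cells 1 (12.4%), with none higher.

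Other targets of interferon gamma were counted beside the members. Of 13 listed, 6 of 12 measured were lower in epithelial cells (Cxcl9, Cxcl10, Gbp4, Ido1, Nos2 and Ciita; all genes 10.6%). In monocytes 7 of 8 were lower (all genes 13.4%), in macrophages 3 of 8 (Cxcl9, Irgm2 and Nos2; all genes 7.14%) and in T cells 5 of 7 (all genes 12.4%). In neutrophils 2 of 5 were lower (Irgm2 and Nos2) and 1, Cxcl11, was higher, with a median log2 ratio of −0.04 (all genes 16.5% lower and 5.66% higher). Cxcl9, a chemokine that draws T cells, had 11.3 CPM in cells labelled KO and 54.4 CPM in cells labelled WT in macrophages (ratio 0.207, 0.135 to 0.307). It had 22.0 CPM labelled KO against 63.2 CPM labelled WT in monocytes (ratio 0.348, 0.237 to 0.495). Cxcl10 had 50.6 CPM labelled KO against 130.1 CPM labelled WT in epithelial cells (ratio 0.389, 0.370 to 0.408). Neutrophils held 221 CPM labelled KO against 134 CPM labelled WT (ratio 1.65, 1.36 to 1.99), higher in the library labelled KO but within 2-fold. Of 15 genes of MHC class I presentation, 2 were lower in epithelial cells, Nlrc5 and H2-T23, a count near the share over all genes (10.6%). The class I heavy chain gene H2-K1 was level at 460.4 CPM labelled KO against 452 CPM labelled WT (ratio 1.02, 0.998 to 1.04).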

How the data were processed

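Single-cell RNA was measured in 1 library per genotype. The authors deposited a gene-by-barcode matrix per library of raw UMI counts, made with Cell Ranger 7.2.0 per the file headers and with the genome build GRCm39 per the submitters' processing notes; the labels' extraction protocol describes bulk RNA, so the cell isolation is not given in the sources used here. Filters of 200 genes at the least and 20% mitochondrial UMIs at the most left 4387 barcodes labelled KO and 8895 labelled WT. Scrublet's automatic limit marked 2 barcodes labelled KO and 0 labelled WT and had not worked, so the highest-scoring 3.51% labelled KO and 7.12% labelled WT were removed at an assumed 0.8% per 1000 barcodes. Cells were normalized to 10000 UMIs, and 2000 variable genes without the members, 30 components and 15 neighbours gave Leiden clusters at resolution 1 with scanpy 1.11.5. Clusters were named from marker lists. For each class in each library, UMIs were added up and scaled to CPM, with exact Poisson intervals for levels, conditional binomial intervals for ratios and Clopper-Pearson intervals for shares, all at 95% and covering counting error only. A gene needed 20 UMIs in both libraries together, and 2-fold was the size counted. The method was tested on simulated counts. Motifs were searched in 300-base RefSeq promoters, and shared 50-base stretches in the last 1000 transcript bases. Genes described singly were the 2 members with most UMIs in each of 9 roles and up to 3 with the largest differences per class and direction, plus members that complete a role; those were chosen after their values were seen. The members and lists were chosen with earlier results of these data known.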

Additional observations from a re-analysis of the deposited data

Results flagged for a closer look

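Gbp5 differed in direction between cell classes. Its log2 ratio, KO over WT, was 1.43 in neutrophils, against −2.82 in epithelial cells, −1.17 in monocytes and −1.06 in macrophages. Each class is 1 sum per library, and the difference between classes was not tested. The neutrophil value rested on 14 UMIs in cells labelled KO and 39 in cells labelled WT.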

How the results depend on the processing

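No paired analysis was possible because each genotype has 1 library, and no replicate could be left out for the same reason. Of the summary values recomputed under the alternatives, 216 kept their direction and size, 30 did not and none reversed. With each cell weighted equally the epithelial median was −1.48, and with equal weight per cluster 12 epithelial members were lower (all genes 10.5%). At a fold of 1.5, 1 epithelial, 2 monocyte, 1 macrophage, 3 T-cell and 5 B-cell members were higher. At that fold 18 macrophage, 13 T-cell and 2 B-cell members were lower. The share over all genes is not given for that fold, so these counts are not read as results about the members. Without the 5 richest cells, 1 neutrophil and 1 macrophage member were higher (all genes 5.94% in both classes). Each cell weighted equally also gave 1 higher macrophage member (all genes 6.51%). At a minimum of 50 UMIs, 1 neutrophil and 1 B-cell member were higher (all genes 3.90% and 2.43%) and 2 T-cell members were lower (8.69%). With no minimum, 2 T-cell and 6 B-cell members were higher (all genes 4.87% and 7.85%) and 3 B-cell members were lower (16.45%). At resolution 0.5, 5 monocyte members were lower and 1 higher (all genes 12.2% and 3.59%), and 1 B-cell member was lower (10.4%). Without doublet removal, 10 T-cell members were lower and 2 higher (all genes 13.35% and 4.31%), and 1 B-cell member was lower (12.2%). The 10% mitochondrial filter gave 2 higher T-cell members (all genes 3.53%), and with members among the variable genes 1 B-cell member was lower (10.8%). Under that mitochondrial filter the T-cell ratio of Ifit1bl1 turned to 1.48; it rests on few UMIs. In alternatives chosen after seeing the data, 12 members were lower in cluster 0 (cells with at least 5000 UMIs, all genes 7.16%). Without Ifit1-rich cells, 3 were lower in cluster 5 and 4 in cluster 11 (all genes 5.47% and 5.97%). Leaving out T and B cells rich in neutrophil markers, also chosen then, gave the same counts of lower and higher members in both classes. The causes were not tested. Of the 70 calls of a member in a class, where a member called in several classes counts in each, 59 to 69 stayed past 2-fold. This range covers the alternatives run on all classes. Equal weight per cluster could not be run for macrophages and B cells, which have 1 cluster, nor free RNA subtraction for neutrophils, monocytes and macrophages. With 199 neutrophils and 136 B cells labelled KO, members at a few UMIs have wide intervals.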

Other observations

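Bst2 also had a ratio above 1 in classes outside the 6 main ones. Plasma cells held 522.7 CPM of Bst2 in the library labelled KO and 319.0 CPM in the library labelled WT, mast cells 171.8 CPM labelled KO and 50.4 CPM labelled WT, and plasmacytoid dendritic cells, the class with the most Bst2 and the cell type best known for making type I interferon, 3970 CPM in 4 cells labelled KO and 2324 CPM in 15 cells labelled WT.

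Ifng, the gene of interferon gamma, had its highest level in cluster 16, which was left unnamed and was led by Xcl1, Cd8a and Nkg7 among others. This cluster held 77.8 CPM of Ifng in 51 cells labelled KO and 291 CPM in 259 cells labelled WT.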
